A study of Mus musculus with 6 samples.

Results

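The genes described here encode the enzymes that build cholesterol and long-chain fatty acids, together with the proteins that sense sterols and set the level of those enzymes. The list held 32 genes: 18 sterol enzymes, 6 sterol regulators or carriers and 8 fatty acid enzymes. Of these, 31 had a probe set that carried their symbol, out of 18194 genes on the array, and Acat2 was not analysed here. Where a gene had several probe sets, the brightest one on average stood for it. The rule lists genes by function and uses no measured value, although the list was drawn up with earlier results of these data known.

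The samples were sorted mouse bone marrow cells of an acute myeloid leukaemia model driven by the fusion oncogene MLL-AF9, measured on 6 Affymetrix arrays. Wild-type recipients aged 12 weeks had been irradiated and given 50000 cKit+ cells infected with MLL-AF9-IRES-YFP and 250000 wild-type marrow cells as support. The WT group (n = 3) carried donor cells of genotype EF1αwt/wt ROSAwt/CreERT2, and the N1-IC group (n = 3) donor cells of genotype EF1αwt/lsl-N1-IC ROSAwt/CreERT2. N1-IC is the intracellular, active part of Notch1, placed in the EF1α locus behind a stop cassette that Cre removes. CreERT2, a Cre recombinase that tamoxifen activates, was present in both groups, and all recipients got 2 tamoxifen injections of 0.2 mg per g of body weight, starting 4 weeks after transplantation, and were analysed 6 days after the last one. The sorted cells, called LGMP in the labels, were lineage-negative, cKit+, Sca1-, YFP+, CD34+ and FcgRII/III+. YFP marked the MLL-AF9 vector, and the labels name no marker for cells in which the stop cassette had been removed. By the labels the WT samples were male and the N1-IC samples female, so genotype and sex cannot be told apart. The labels do not say whether a sample came from 1 recipient, so a p-value here reflects only how these samples scatter, which may be technical.

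Cholesterol is made from acetyl-CoA through mevalonate, squalene and lanosterol, and fatty acids from the same acetyl-CoA through malonyl-CoA. The transcription factors SREBP-1 and SREBP-2, encoded by Srebf1 and Srebf2, switch on both routes: when membrane sterol is low, the escort protein SCAP carries them to the Golgi for cleavage, and when it is high, INSIG proteins hold them in the endoplasmic reticulum. Fast-dividing blood progenitors and leukaemia cells use both routes to build membranes.

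Array medians lay between 49.6 and 51.0 intensity units, and values below are log2 intensities unless stated. The primary granule genes Mpo and Elane of the sorted progenitors lay between 13.59 and 14.11 on all 6 arrays. Cd34, a marker of the sort gate, lay at 11.69, 11.52 and 11.33 in WT and at 11.04, 10.05 and 11.28 in N1-IC. It was lower without overlap (limma adjusted p = 0.618), as were 6.52% of all genes. For the other gate markers Kit, Fcgr3 and Fcgr2b the groups overlapped, with log2 fold changes of -0.003, -0.25 and -0.16. The Notch1 probe set differed by -0.004 ± 0.18 (standard error) on the log2 scale. Whether it lies within the N1-IC stretch is not stated in the labels, so it does not check them. WT replicate 2 stood apart. Its level of Xist, the RNA of the inactive X chromosome, was 10.70 against 5.64 and 5.42 on the other WT arrays and 12.73 to 12.82 on the N1-IC arrays, although it was labelled male. The Y-linked genes Eif2s3y, Kdm5d and Uty were present on this array, at 10.34, 6.88 and 6.70, each the lowest of the WT arrays. It was also the highest array for 7 of 8 measured erythroid markers, with a list mean of 8.74 against 4.78 to 5.90 elsewhere. WT replicate 1 had the lowest mean of the late granulocyte markers, 7.47 against 9.74 to 10.44. In bulk samples like these, fewer cells of a type and less RNA per cell cannot be told apart.

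Promoter windows of RefSeq genes (build GRCm38.p6, 250 bases before to 50 after the annotated start) were found for 25 of the 32 genes. They are shown for 3 genes that the results below turn on: Hmgcs1, Fasn and Acaca. On the brightest probe sets, Hmgcs1 was the steadiest of the early sterol enzymes. Fasn and Acaca were the members whose groups did not overlap. Some dimmer Hmgcs1 probe sets did separate the groups, as described below. Capitals mark matches to TCACNCCAC, a consensus of the sterol regulatory element that SREBPs bind, and to CCAAT, the box bound by NF-Y, an SREBP partner. Both were searched on both strands, so that CCAAT also appears as ATTGG.

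Hmgcs1, chr13:119690101-119690400, plus strand: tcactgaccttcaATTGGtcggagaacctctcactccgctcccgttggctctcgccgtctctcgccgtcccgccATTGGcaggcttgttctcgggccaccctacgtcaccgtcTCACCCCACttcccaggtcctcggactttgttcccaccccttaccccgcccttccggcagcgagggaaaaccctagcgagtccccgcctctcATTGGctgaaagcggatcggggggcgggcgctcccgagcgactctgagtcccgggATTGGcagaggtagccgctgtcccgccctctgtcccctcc
Fasn, chr11:120824498-120824797, minus strand: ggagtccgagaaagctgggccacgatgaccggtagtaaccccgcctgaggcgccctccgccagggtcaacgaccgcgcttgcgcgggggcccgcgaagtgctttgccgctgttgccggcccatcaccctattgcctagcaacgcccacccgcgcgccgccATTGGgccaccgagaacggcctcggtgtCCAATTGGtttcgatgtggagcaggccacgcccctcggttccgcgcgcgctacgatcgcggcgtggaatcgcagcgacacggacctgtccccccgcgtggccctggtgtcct
Acaca, chr11:84195188-84195487, plus strand: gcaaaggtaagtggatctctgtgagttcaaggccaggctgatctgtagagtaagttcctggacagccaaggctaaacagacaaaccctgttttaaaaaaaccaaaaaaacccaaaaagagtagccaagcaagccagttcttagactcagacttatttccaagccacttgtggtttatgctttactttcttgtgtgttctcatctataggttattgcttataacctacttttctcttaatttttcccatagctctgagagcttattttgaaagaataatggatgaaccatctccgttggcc

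The Hmgcs1 window held 4 CCAAT boxes and the single match to TCACNCCAC among the 25 genes, where 1.44% of 27025 genes in the table had one. The Fasn window held 3 CCAAT boxes, 2 of which overlap as CCAATTGG, and the Acaca window held none. Whether these cells start Acaca transcripts at that annotated position was not tested, so the window may not be its promoter here. CCAAT was present for 20 of the 25 genes, against 41.1% of all genes. GGGCGG, the letters of an Sp1 box, were present for 21 of 25 genes, against 38.2% of all genes. CGTGGGAA, the letters bound by Rbpj, the DNA-binding partner of N1-IC, was found for 0 of the 25 genes and for 0.862% of all genes. A match is a string of letters and not a measured binding site, and a window without one says nothing of sites elsewhere.

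The design sets N1-IC against WT cells 6 days after tamoxifen. On the brightest probe sets the sterol enzymes differed little. The clearest differences there were lower values in N1-IC of Fasn and Acaca, which encode the core enzymes of fatty acid synthesis. Some dimmer Hmgcs1 probe sets differed at least as clearly, with log2 fold changes of 0.545 and 0.48. None of the 31 genes passed a limma adjusted p under 0.05 over all genes, and their adjusted p values ran from 0.618 to 0.999. Over the whole array 0.0055% of genes passed. This was 1 gene, the Y-linked Eif2s3y, lower in N1-IC by a log2 fold change of -7.75, and the groups differ in labelled sex. The unadjusted p was under 0.05 for 2 of the 31 genes (6.45%), against 7.98% of all genes (4.14% higher and 3.84% lower), so the members did not exceed the background. The groups did not overlap for 2 members, both lower in N1-IC (6.45%), against 6.52% of all genes in that direction and 8.32% in the other, where 0 members lay.

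**Figure D1:**
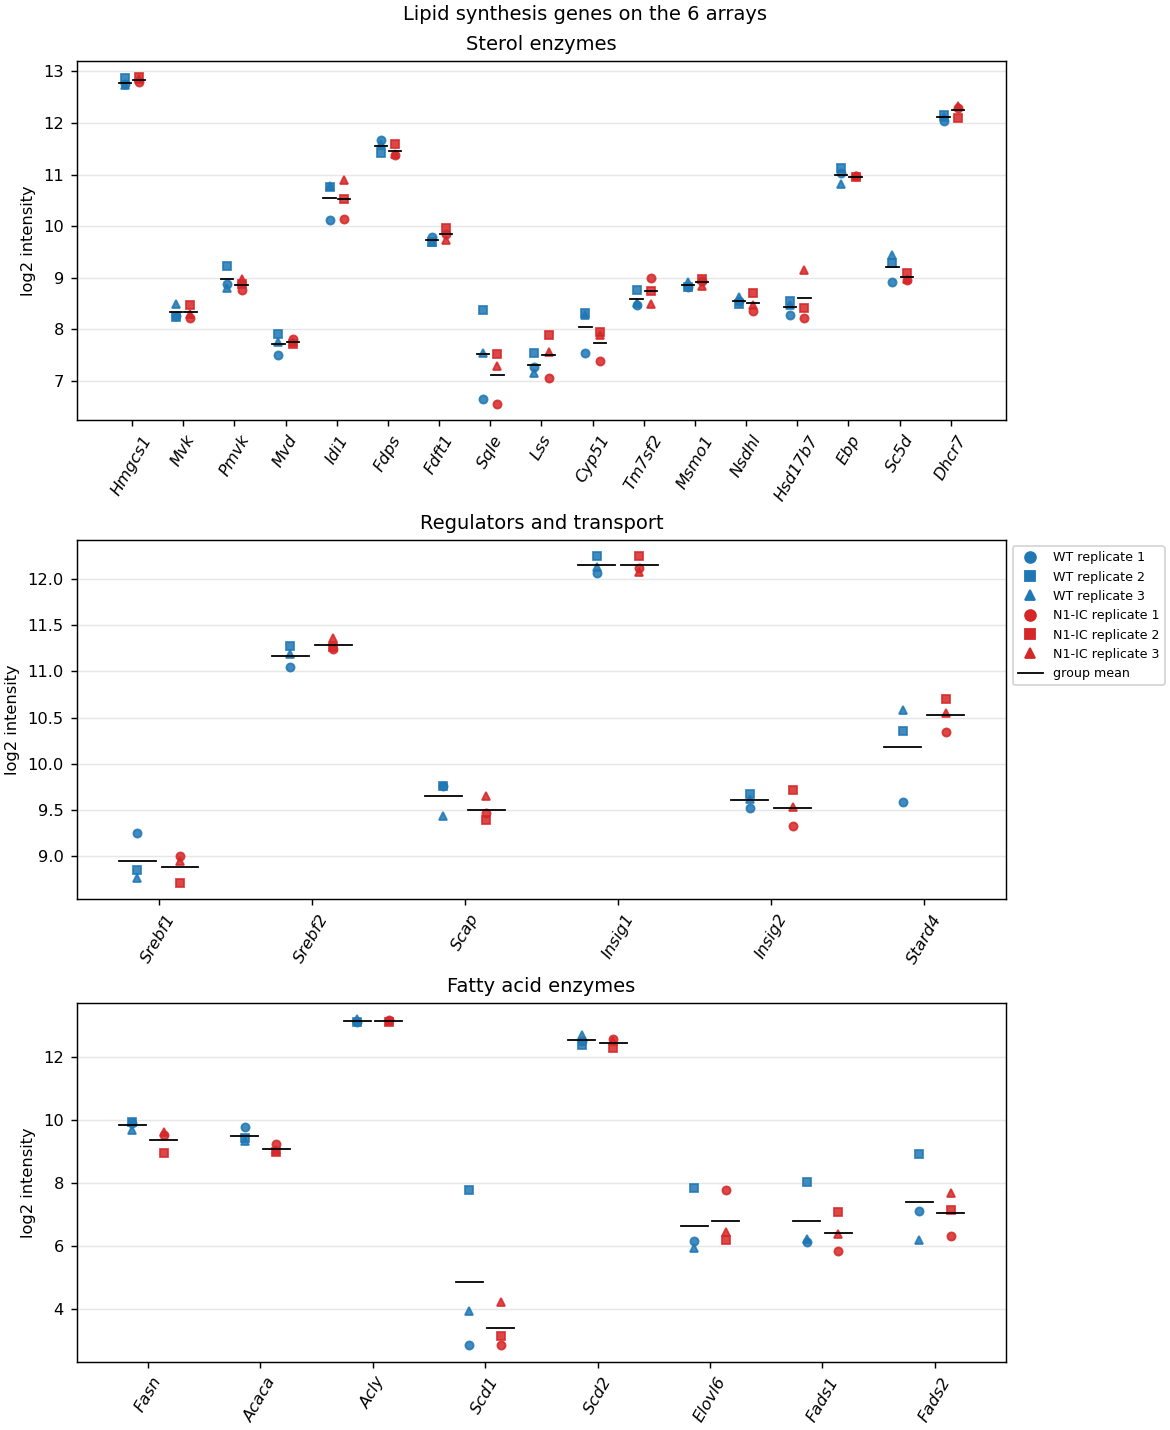
Log2 intensity of the 31 measured genes (y axis) on each of the 3 WT (blue) and 3 N1-IC (red) arrays, by role, with black lines for group means. WT replicate 2 stands above the other arrays for Scd1, Fads1, Fads2 and Sqle, and the Fasn and Acaca points of N1-IC lie below all WT points.

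Among the 17 measured sterol enzymes 8 were higher and 9 lower in N1-IC. Their median log2 fold change was -0.008, against 0.01 over all genes, and single values ran from -0.40 to 0.19. For 16 of the 17 genes the 95% interval lay within 1 log2 unit of 0, and for 10 within 0.5.

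Hmgcs1, which makes HMG-CoA, lay at 12.75, 12.86 and 12.74 on the WT arrays and at 12.79, 12.88 and 12.84 on the N1-IC arrays. It differed by 0.05 with a 95% interval of -0.16 to 0.26. Its range over 6 arrays, 0.14, was larger than that of only 2.77% of all genes. Mvk, Pmvk and Mvd, which turn mevalonate into isopentenyl diphosphate, had log2 fold changes of -0.008, -0.10 and 0.04. Idi1, the isomerase that follows, lay at 10.11, 10.76 and 10.78 in WT and at 10.13, 10.52 and 10.90 in N1-IC. In both groups replicate 1 was the lowest array, and the difference was -0.03 ± 0.26 (standard error). A dimmer Idi1 probe set gave 0.435 ± 0.355. Fdps, which joins the units into farnesyl diphosphate, had -0.10 ± 0.11, and Fdft1, the squalene synthase, 0.12 ± 0.10.

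Dimmer probe sets of Hmgcs1 and Fdft1 differed from the brightest ones. For Hmgcs1, 1 dimmer probe set lay at 10.58, 10.44 and 11.03 in WT and at 11.21, 11.25 and 11.22 in N1-IC, so that every N1-IC array was above every WT array. Its log2 fold change was 0.55 ± 0.16, and another gave 0.48 ± 0.15 with the same separation (limma adjusted p of 0.639 for both over all 45101 probe sets). The least bright probe sets of Fdft1 gave 0.29 and 0.26, again without overlap. In all, the 31 genes had 72 probe sets, of which 5 were higher without overlap and 4 lower. Over the array the shares were 7.39% and 7.02%, so these counts were near the background. Of 22 members with several probe sets, 12 had log2 fold changes of both signs.

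The squalene and lanosterol steps varied more. Sqle, the squalene epoxidase and a rate-setting step of the route, lay at 6.65, 8.37 and 7.54 in WT and at 6.56, 7.52 and 7.29 in N1-IC. The groups overlapped, and the log2 fold change of -0.40 ± 0.47 became 0.03 without WT replicate 2. Lss, which closes the lanosterol rings, had 0.19 ± 0.23. Cyp51, the lanosterol demethylase, lay at 7.54, 8.32 and 8.28 in WT and at 7.39, 7.95 and 7.89 in N1-IC, a difference of -0.31 ± 0.26 (adjusted p = 0.707). With 1 array left out it ran from -0.56, without WT replicate 1, to -0.13.

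The enzymes from lanosterol to cholesterol differed little between the groups. Tm7sf2, a sterol reductase, had a log2 fold change of 0.15, Msmo1, the methyl sterol oxidase, 0.06, and Hsd17b7, a keto reductase, 0.15. For Hsd17b7 1 array set the mean: N1-IC replicate 3 was at 9.16 and the other 5 arrays at 8.22 to 8.56, and without it the value was -0.13. The dimmer Hsd17b7 probe sets were not high on that array, and 1 had its lowest value there, 5.56. Their log2 fold changes were -0.02, 0.25 and -0.03. Sc5d, a desaturase, had -0.20 ± 0.15, and Dhcr7, which makes cholesterol from 7-dehydrocholesterol, 0.13 ± 0.10. Nsdhl and Ebp lie on chromosome X, and the groups differ in labelled sex. They gave -0.05 and -0.03. Without this pair the median of the sterol enzymes was 0.04.

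The sterol enzymes also varied between arrays of a group. Of the 17, 14 had their lowest value on WT replicate 1 or N1-IC replicate 1 (82.4%), where 34.2% of all genes did. For 5 of them, Idi1, Sqle, Cyp51, Hsd17b7 and Sc5d, both of these arrays lay below the other 4, and for Stard4, Insig2, Scd1 and Fads1 as well. That made 9 of 31 members, against 5.07% of all genes. These counts used the brightest probe set of each gene, and dimmer ones often differed. On N1-IC replicate 1 a dimmer Hsd17b7 probe set had its highest value, 6.11. Dimmer ones of Idi1 and Sc5d had 9.70 and 6.69 there, above WT replicate 2 at 9.49 and 6.43. A dimmer Cyp51 probe set kept the pattern. The pattern was noticed in the data and has no test. The arrays share only a number, and over all genes their deviations from the group means correlated at 0.009. The late granulocyte list was low on WT replicate 1 alone, at 7.47 against 10.17 on N1-IC replicate 1, and its part in the pattern was not tested.

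On their brightest probe sets, regulators of the route did not separate the groups. Among the 6 genes, 2 had a higher and 4 a lower N1-IC mean, with a median of -0.04 and 0 past the threshold. Srebf2, which encodes the factor that favours sterol genes, lay at 11.05, 11.28 and 11.19 in WT and at 11.24, 11.27 and 11.36 in N1-IC, a difference of 0.12 with an interval of -0.12 to 0.36. Srebf1, whose product favours fatty acid genes, had -0.07 ± 0.16, and its probe set cannot be assigned here to either transcript form. Scap, the escort gene, had -0.15 ± 0.13, and a dimmer probe set of it 0.51 ± 0.53. Insig1, itself a sensitive SREBP target, had 12.07, 12.25 and 12.13 in WT and 12.12, 12.25 and 12.08 in N1-IC, and its interval ran from -0.24 to 0.24. Insig2 had -0.08 ± 0.13. Its dimmer probe sets gave -0.16 ± 0.11, without overlap, and 0.14 ± 0.26, with overlap. Stard4, which carries cholesterol through the cytosol, had 9.58, 10.36 and 10.58 in WT and 10.34, 10.70 and 10.55 in N1-IC. Its difference of 0.35 ± 0.27 was the highest among the members on their brightest probe sets, and without WT replicate 1 it was 0.06. Dimmer Stard4 probe sets gave -0.18 ± 0.25 and 0.35 ± 0.29.

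**Figure D2:**
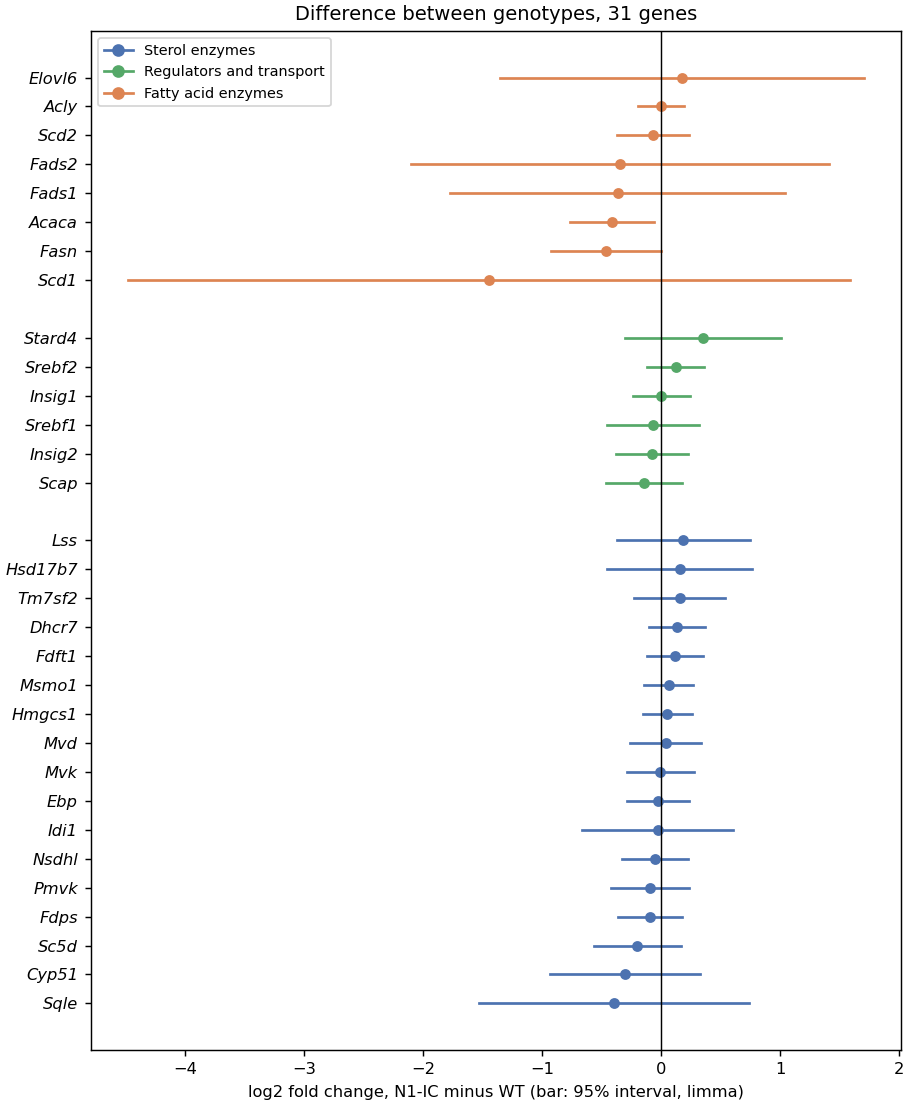
Log2 fold change of N1-IC against WT (x axis, points) with the 95% interval from limma (bars) for the 31 genes, grouped by role. Intervals of all sterol enzymes and regulators hold 0, that of Sqle being the widest among them, those of Fasn and Acaca end just below 0, and those of Scd1, Fads1, Fads2 and Elovl6 are wide.

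Of the 8 fatty acid enzymes 7 were lower and 1 higher in N1-IC, and the median log2 fold change was -0.36, with 0 past the threshold. This median rested on WT replicate 2. Without that array it was -0.003, with 4 genes higher and 4 lower.

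Fasn, the fatty acid synthase, lay at 9.89, 9.91 and 9.66 on the WT arrays and at 9.50, 8.95 and 9.60 on the N1-IC arrays. The mean went from 9.82 ± 0.14 to 9.35 ± 0.35 (SD, n = 3), a log2 fold change of -0.47 ± 0.19 (limma adjusted p = 0.618). The groups nearly touched, with WT replicate 3 at 9.66 and N1-IC replicate 3 at 9.60. N1-IC replicate 2 was the low array, and without it the value was -0.27.

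Acaca encodes acetyl-CoA carboxylase 1, which makes the malonyl-CoA that Fasn uses. It lay at 9.76, 9.41 and 9.31 in WT and at 9.22, 8.98 and 9.04 in N1-IC. The difference was -0.42 ± 0.15 with an interval of -0.77 to -0.06 (limma adjusted p = 0.618). A dimmer probe set of Acaca gave -0.15 ± 0.11, also with all N1-IC arrays below all WT arrays. In linear terms N1-IC differed from WT by -27.6% for Fasn and by -25.1% for Acaca. With 1 array left out at a time, Fasn ran from -0.59 to -0.27 and Acaca from -0.51 to -0.28, the latter value without WT replicate 1.

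Acly, which supplies the acetyl-CoA for both routes, was nearly the same on every array. It lay between 13.10 and 13.19 in both groups, and its range of 0.09 was larger than that of 0.682% of genes. Its difference was -0.001 ± 0.08.

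The stearoyl-CoA desaturases Scd1 and Scd2 introduce the first double bond into fatty acids, and their patterns differed. Scd2 lay at 12.48, 12.37 and 12.68 in WT and at 12.55, 12.28 and 12.48 in N1-IC, with a difference of -0.07 ± 0.12. Scd1 was high on 1 array alone: WT replicate 2 had 7.78, and the other arrays 2.84 to 4.22. Its log2 fold change of -1.45 ± 1.25 became 0.01 without that array. The lower quartile of the arrays was at 3.86 to 3.92 log2 units, and detection calls were not used here, so Scd1 may not be above background on the low arrays. Its other probe set stayed at 2.79 to 3.20 on all 6 arrays, WT replicate 2 included.

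Fads1 and Fads2, the desaturases for polyunsaturated fatty acids, and Elovl6, an elongase, were also highest on WT replicate 2. Fads1 lay at 6.13, 8.02 and 6.22 in WT and at 5.83, 7.08 and 6.36 in N1-IC. Fads2 lay at 7.09, 8.92 and 6.19 in WT and at 6.31, 7.15 and 7.68 in N1-IC. On these probe sets both had a lower mean in N1-IC with all arrays, at -0.37 ± 0.58 and -0.35 ± 0.73. Without WT replicate 2 both had a higher mean, at 0.25 and 0.41. A dimmer Fads1 probe set was not high on WT replicate 2, at 4.61, and gave 0.26 ± 0.16. The dimmer Fads2 probe sets were highest on that array, at 7.2 and 6.48. Elovl6 lay at 6.14, 7.82 and 5.92 in WT and at 7.78, 6.18 and 6.45 in N1-IC, so 1 array of each group was high. Its value of 0.17 ± 0.63 became 0.77 without WT replicate 2. These were values of the brightest Elovl6 probe set, and the dimmer ones gave -0.16 and -0.32. They were not high on N1-IC replicate 1, at 6.10 and 3.31, against 7.34 and 4.76 on WT replicate 2.

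On the brightest probe sets, WT replicate 2 exceeded every other array by over 0.5 log2 units for 4 members (12.9%), where 2.34% of all genes did so. These were Sqle, Scd1, Fads1 and Fads2. The gap was 3.56 for Scd1, 1.24 for Fads2, 0.94 for Fads1 and 0.83 for Sqle. This is the array with the erythroid marker mean of 8.74. There Klf1 was at 10.04 and Gata1 at 9.39, against at most 6.25 and 6.64 on the others. It also had the highest mean of the NK list, 7.58 against 6.48 to 6.99, and of the mast cell, basophil and eosinophil list, 9.57 against 7.30 to 9.17. It was the highest array for 2 of the 5 NK and 2 of the 7 mast cell, basophil and eosinophil markers. The T lineage list (5.25 against 4.66 to 5.03) and the monocyte and macrophage list (10.26 against 9.64 to 10.07) also peaked there. This array was the highest for 2 of the 5 T lineage and 2 of the 7 monocyte and macrophage markers. The late granulocyte, B lineage and stromal lists peaked on other arrays. The part of such cells in the 4 genes was not tested.

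**Figure D3:**
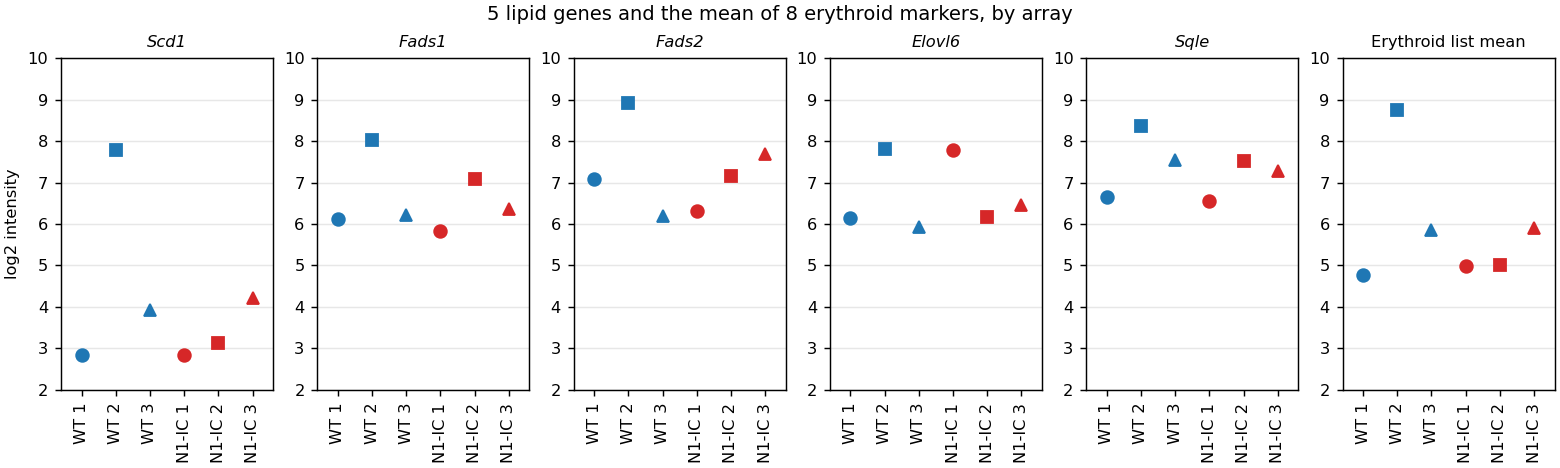
Log2 intensity (y axis) of Scd1, Fads1, Fads2, Elovl6 and Sqle and the mean of 8 erythroid markers on each array (x axis; blue WT, red N1-IC). The brightest probe sets are plotted. WT replicate 2 is the highest array in every panel, and N1-IC replicate 1 is as high only for Elovl6.

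Genes around these routes were read from 3 further lists. Of 42 listed genes 33 were analysed, and 0 passed. The unadjusted limma p was under 0.05 for 4 of the 33, against 7.98% of all genes. The groups were apart for 7 of the 33, against 14.8% of all genes in either direction. N1-IC was higher for 4 of the 33 and lower for 3, against 8.32% and 6.52% of all genes. The medians of the lists were -0.05 for further synthesis genes, -0.09 for sterol sensing, uptake and efflux genes and -0.006 for fatty acid oxidation genes.

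Tmem97, a sterol-responsive endoplasmic reticulum protein that binds the cholesterol transporter NPC1, had the smallest p of the lipid genes examined. It lay at 11.02, 11.07 and 10.90 on the WT arrays and at 10.49, 10.30 and 10.52 on the N1-IC arrays. The groups were well apart, with a log2 fold change of -0.56 ± 0.10 (limma unadjusted p of 0.0014, adjusted p of 0.618). It ranked 36 among 18194 genes by p. Leaving out any single array left its value between -0.60 and -0.49. The other sterol sensing, uptake and efflux genes nearest to the threshold were Mbtps1, a protease that cleaves SREBPs, at -0.24 ± 0.13, Abcg1, a sterol exporter, at -0.33 ± 0.21, and Mbtps2, the other SREBP protease, at 0.23 ± 0.18. Single arrays moved them: without WT replicate 1 Mbtps1 was at -0.15 and Abcg1 at -0.11, and without WT replicate 2 Mbtps2 was at 0.04.

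Of the 10 oxidation genes measured, N1-IC had the higher mean for 4 and the lower mean for 6. Cpt1a, which starts the carnitine shuttle that takes fatty acids into mitochondria, lay at 9.68, 9.68 and 10.27 in WT and at 10.50, 10.71 and 10.36 in N1-IC. The difference was 0.65 ± 0.19 (limma adjusted p = 0.618). A second probe set of Cpt1a gave 0.71 ± 0.22, also without overlap, and the last gave 0.38 ± 0.24 with overlap. Slc25a20, the carnitine carrier of the inner membrane, had 0.21 ± 0.09 and no overlap. Cpt2, which ends the shuttle and is named after its values were seen, had -0.007 ± 0.13. Acadvl and Acadl, dehydrogenases of the oxidation cycle, had -0.19 ± 0.12 and -0.14 ± 0.09.

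Acacb encodes the mitochondrial acetyl-CoA carboxylase, whose malonyl-CoA restrains Cpt1a. It lay at 6.97, 7.85 and 8.44 in WT and at 8.51, 9.23 and 8.88 in N1-IC. WT replicate 3 and N1-IC replicate 1 nearly touched, and the log2 fold change of 1.12 ± 0.39 (adjusted p = 0.618) was 0.73 without WT replicate 1. Of the further synthesis genes, Elovl1, an elongase for very long chains, had -0.27 ± 0.11, and Slc25a1, the carrier that exports citrate for Acly, -0.26 ± 0.11, both without overlap. Acsl3, an acyl-CoA synthetase, had -0.81 ± 0.39, with N1-IC replicate 3 at 7.49, above the WT arrays at 7.34 to 7.39, and the others at 6.21 and 5.94. Without N1-IC replicate 3 it was at -1.29 and without N1-IC replicate 2 at -0.51. Dimmer Acsl3 probe sets gave -1.18 ± 0.42 without overlap and -0.45 ± 0.35 with overlap. Elovl1 was at -0.17 without WT replicate 2. Hsd17b12, named after its values were seen, had 0.16 ± 0.09, and 0.10 without WT replicate 1.

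**Figure D4:**
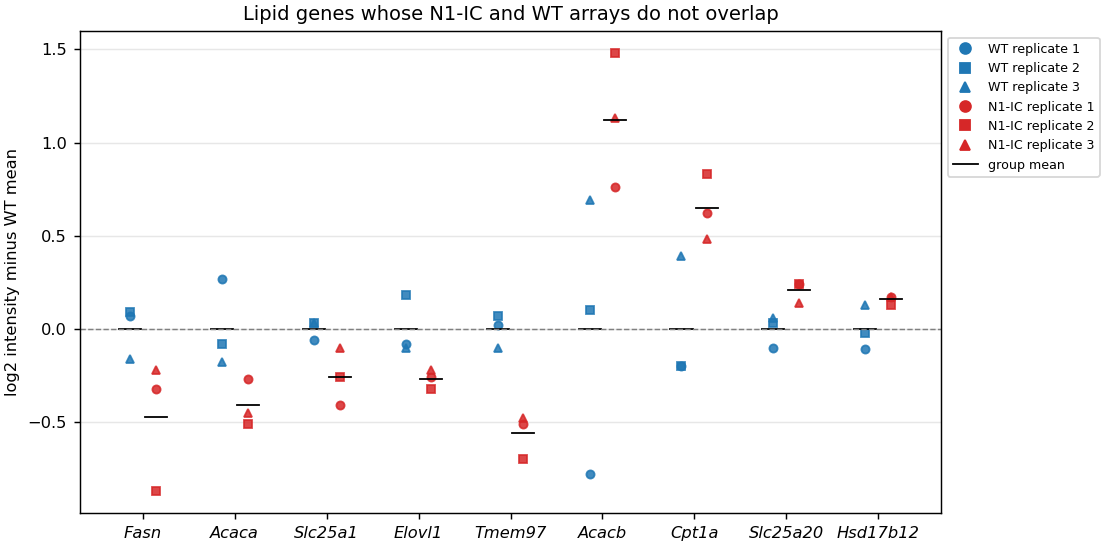
Log2 intensity minus the gene's WT mean (y axis) for the 9 genes of the member list and the 3 further lists whose WT (blue) and N1-IC (red) arrays do not overlap; black lines are group means. Fasn, Acaca, Slc25a1, Elovl1 and Tmem97 lie lower in N1-IC, and Acacb, Cpt1a, Slc25a20 and Hsd17b12 higher, and 0 of them passed the adjusted threshold.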

How the data were processed

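RNA of 6 samples (3 WT, 3 N1-IC; 5 ng of total RNA each, amplified and biotin-labelled per the labels' protocols) was measured on Affymetrix arrays. The authors deposited linear intensities, made with RMA per the submitters' processing notes; its version and settings are not given in the sources used here. Log2 was taken with no offset. Sorted values of the arrays lay within 0.103 log2 units of the mean array, so differences in total signal between groups are not visible. The platform annotation gave 1 symbol for 34958 of 45101 probe sets, several for 932 and none for 9211. Symbols were updated through Entrez identifiers in the RefSeq table for 34754. The brightest probe set of each of 18194 genes entered limma 3.58.1 in R 4.3.3 (lmFit, eBayes, no block), with Benjamini-Hochberg adjustment over all genes. Errors are moderated standard errors unless marked SD. The members and lists were chosen with earlier results of these data known. Named are all members and, per further list, up to 4 genes with the smallest p, with exceptions marked. No list was tested. The number of arrays limits the precision. Some genes of the further lists are not reported here.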

Additional observations from a re-analysis of the deposited data

How the results depend on the processing

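None of the 31 members passed an adjusted p under 0.05 in the 462 values computed under alternatives. The smallest adjusted p was 0.336 (Acaca without WT replicate 3). For 13 members no reversal of sign was counted. These include Insig1, whose value of 0 in the reported fit has no sign to reverse. With 1 array left out, Insig1 ran from -0.052 to 0.052. The count of genes called over the array, 1 in the reported fit, was 3 with a mean-variance trend, 2 with array weights, 2 with dim genes filtered out at the median, 5 with the mean of probe sets, 4 among all probe sets, 4 at a threshold of 0.1 and 0 to 5 with 1 array left out. With the replicate number as a block it was 0. Same-numbered arrays deviated from their group means with correlations of 0.009, 0.061 and -0.11, so the numbers were not taken as pairs, and the block called no member. Members without overlap, 2 of 31 in the reported fit, numbered 5 with the mean of probe sets (16.1%, against 14.7% of all genes) and 3 to 6 with 1 array left out (9.68% to 19.4%, against 22.8% to 34.1% of all genes). Signs changed for Acly with array weights (0.001) and median centring (0.014), for Mvk with median centring (0.006), further quantile normalization (0.054) and the mean of probe sets (0.025), and for Nsdhl with further quantile normalization (0.006). With the mean of probe sets they changed for Mvd (-0.122), Idi1 (0.202), Scap (0.184) and Elovl6 (-0.101). With 1 array left out, log2 fold changes ran from -0.071 to 0.128 for Mvd, -0.169 to 0.077 for Srebf1, -0.315 to 0.771 for Elovl6, -0.175 to 0.03 for Pmvk, -0.252 to 0.161 for Idi1, -0.834 to 0.027 for Sqle, -0.119 to 0.042 for Ebp, -2.452 to 0.011 for Scd1, -0.698 to 0.247 for Fads1, -0.953 to 0.411 for Fads2, -0.079 to 0.069 for Mvk, -0.017 to 0.027 for Acly, -0.14 to 0.013 for Scd2, -0.148 to 0.022 for Nsdhl, -0.18 to 0.019 for Insig2, -0.01 to 0.41 for Lss and -0.127 to 0.343 for Hsd17b7. Without a change of sign, they ran from -0.56 to -0.129 for Cyp51, -0.351 to -0.086 for Sc5d, -0.255 to -0.087 for Scap, 0.028 to 0.28 for Tm7sf2, 0.056 to 0.558 for Stard4, 0.056 to 0.171 for Srebf2, 0.058 to 0.173 for Fdft1 and -0.17 to -0.045 for Fdps. The list medians ran from -0.075 to 0.018 for fatty acid oxidation and from -0.049 to 0.096 for further synthesis genes. The cause of these shifts was not tested. Detection calls were not used here, so low signals such as Scd1 have no known background.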
